A study of Rattus norvegicus with 6 samples.

Results

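Rat neural stem/progenitor cells (NSPCs) on the film labelled “Low” were compared with the same cells on the film labelled “Medium”, using all libraries with either title and leaving out those of the most conductive film. This gave 4 of the 6 libraries of the series, 2 for each film. Of the 17048 rows of the count table, the 4781 with at least 100 counts in both libraries of at least 1 of these films were described. The study cultured NSPCs on carbon films, bilayers of carbon nanotubes and graphene oxide nanoribbons that were built alike and differed in electrical conductivity. The less conductive of the films compared here, “Low”, had been oxidised for longer than “Medium”. All cells had the label WT, were kept in a medium that maintains stemness and were harvested after 24 h, so the libraries describe undifferentiated culture and not the later differentiation. The cells came from the telencephalon of Sprague-Dawley rat embryos, and the labels do not say whether the replicates were separate cultures, so every p-value below measures only the spread between these libraries. The methods for seeding NSPCs state a coat of poly-D-lysine and laminin at concentrations set by the conductivity. The study reports adjusting the poly-D-lysine so that the films bound comparable amounts of laminin. Conductivity, oxidation and coating still cannot be told apart in this comparison.

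NSPCs are dividing cells of the embryonic brain that can give rise to neurons, astrocytes and oligodendrocytes. In culture they are recognised by transcription factors such as Sox2 and Sox9, by the intermediate filaments nestin (Nes) and vimentin (Vim), and by the near absence of genes of mature neurons and glia. The libraries were QuantSeq 3′ mRNA libraries, in which a transcript is counted by reads from its 3′ end, so levels scaled to library size (CPM) were not divided by transcript length and a level below is a share of 3′ reads.

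The libraries held 5124863 and 5914540 counts on “Medium” and 6213676 and 5460031 on “Low”, given here and below with replicate 1 first. The 7 rows of ribosomal RNA genes (Rn45s, Rn18s, Rn28s and Rn5-8s) took from 7.16 to 13% of them and were left out before scaling. Medium replicate 1 stood apart from the other 3 libraries: it had counts in 5348 rows, against 6682 to 7802 in the others. In the rows with at least 100 counts in all 4 libraries, the log2 values of the Medium replicates correlated with r = 0.738 across genes, those of the Low replicates with r = 0.803, and Medium replicate 2 with the Low replicates at 0.809 and 0.851. Genes are not independent replicates, so these r values are descriptions. With 2 libraries a film, 1 library can set a difference. The median log2 difference of 19 of the 29 gene lists with rows measured in all 4 libraries changed sign when 1 of the 4 libraries was left out. Values without a library are given beside some of the results it moved, not beside all of them.

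The labelled cell type was read first from markers. Sox2 stood at 721 and 668 CPM on “Medium” and 858 and 822 CPM on “Low”, Sox9 at 1149 and 1677 CPM on “Medium” and 1156 and 1766 CPM on “Low”, and Vim at 3732 and 3607 CPM on “Medium” and 3111 and 4431 CPM on “Low”. Of the 29 rows of a neural stem and radial glia list, 17 had at least 100 counts in all 4 libraries, and 6, among them Hes5, Prom1 and Msi1, were at 0 in all of them. The astrocyte genes Gfap, Aqp4, Slc1a2 and Aldh1l1 were also at 0 in all 4 libraries. So were the neuronal genes Rbfox3, Snap25 and Syt1 and the oligodendrocyte factor Sox10. Other members of these lists were measured. Of 31 neuron rows 8 were at 0 throughout and 12 were described. For 17 astrocyte rows these counts were 6 and 6, and for 18 oligodendrocyte rows 8 and 5. Summed over the neuron list, the level was 8216 and 8765 CPM on “Medium” and 8106 and 7197 CPM on “Low”. None of the rows of the microglia, erythroid or meningeal and vascular lists was described: 11 of 15, 7 of 7 and 11 of 17 of their rows were at 0 throughout. Col1a1, the collagen of fibroblasts and meninges, was an exception in a single library, with 2005 counts in Medium replicate 2, 1 count in Low replicate 2 and none in the other libraries. Col3a1 likewise had 384 counts in Medium replicate 2 only. In bulk libraries such as these, fewer cells of a type and less RNA per cell cannot be told apart. The summed level of the meningeal and vascular list was 36.6 and 484 CPM on “Medium” and 79.3 and 30.7 CPM on “Low”, and its part in the results below was not tested.

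The comparison asks whether NSPCs differ in their RNA between the lower conductivities of the series. No row differed between the films in edgeR's quasi-likelihood test: 0 of 6992 rows tested (0%) had a Benjamini-Hochberg adjusted p under 0.05, and the smallest adjusted p was 1.0. Without adjustment, 101 rows (1.44%) had a p under 0.05, 44 with the higher level on “Low” and 57 with the higher level on “Medium”. limma-voom also called 0 rows, whereas DESeq2's Wald test called 157, of which 15 had at least 100 counts in all 4 libraries. With 2 libraries a film, the lowest p that exact permutation (two-sided) allows for 1 gene is 0.333. All fold changes below are log2 differences of “Low” over “Medium” from the edgeR fit with trimmed mean of M-values (TMM) scaling, with their standard error (SE) and 95% interval, and none of them passed that test.

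The described rows fell into 3 classes. In 2927 rows, all 4 libraries reached 100 counts, and these rows were not selected through either film. Another 1274 rows reached 100 counts in both libraries of “Low” alone and 580 in both libraries of “Medium” alone, so a difference in their levels is partly set by how they were chosen. The 100-count minimum was not a natural gap: 119 rows lay just inside it, with a lower count of 100 to 110 in the film that passed, and 122 lay just outside, at 90 to 99. Rows with identical counts cannot be told apart, and 12 described rows formed 6 such sets, Alg1 with Eef2kmt and Snrpn with Snurf among them.

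In the 2927 rows measured in all 4 libraries, the median log2 difference was -0.032, with quartiles of -0.42 and 0.36. Both Low libraries lay above both Medium libraries in 445 rows (15.2%) and below them in 485 (16.6%), and the libraries of the films overlapped in the rest. A fitted difference of at least 2-fold was seen in 430 rows (14.7%), but the replicates of a film differed from each other just as widely. The standard deviation (SD) over rows of the log2 difference between 2 libraries was 0.943 for the Low replicates and 1.06 for the Medium replicates. Across the films it was 1.15 and 1.08 for Medium replicate 1 against Low replicates 1 and 2, and 0.923 and 0.804 for Medium replicate 2 against them. On average the films were 0.987 apart and the replicates 1.0, a difference of -0.016. The closest pair of all was Medium replicate 2 with Low replicate 2, from different films.

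**Figure D1:**
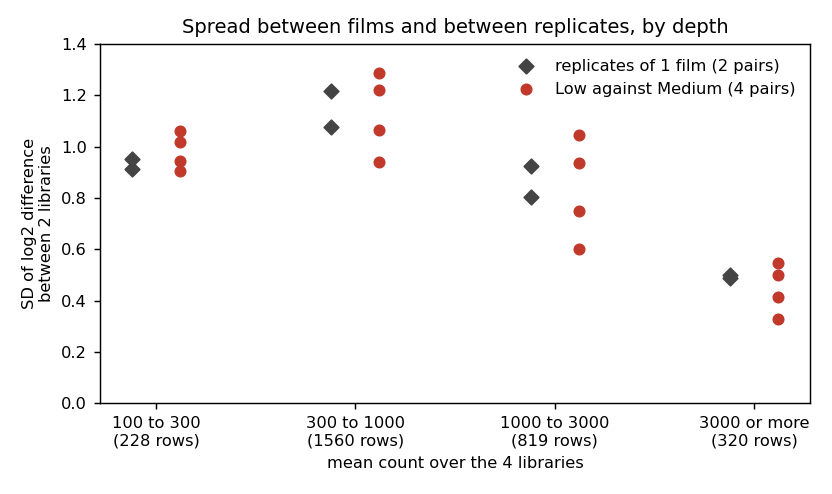
Standard deviation over rows of the log2 difference between 2 libraries (vertical axis, log2 units) in 4 ranges of mean count (horizontal axis), for rows with at least 100 counts in all 4 libraries. Diamonds are the 2 pairs of replicates and circles the 4 pairs of 1 Low and 1 Medium library; the replicate pairs fall inside the range of the film pairs in every range of depth, and all pairs come closest in the rows of 3000 counts or more.

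The fitted SE of a difference narrowed with depth. The SD of the log2 difference between replicates did not follow depth throughout. It averaged 0.93 in rows of 100 to 300 counts, 1.15 at 300 to 1000, 0.86 at 1000 to 3000 and 0.49 at 3000 or more. What set the resolution was not tested. In the 228 rows with a mean of 100 to 300 counts the median SE of the log2 difference was 1.68, and in the 1560 rows of 300 to 1000 counts it was 0.93. In the 819 rows of 1000 to 3000 counts it was 0.47, and in the 320 rows of 3000 counts or more it was 0.28. The share of rows with a fitted difference of at least 2-fold went from 24.1% through 20.2% and 7.33% to 0% over the same ranges. No row under 1000 counts had a 95% interval that stayed within 2-fold in both directions, whereas 206 of the 320 deepest rows did. For rows under 1000 counts a difference of at least 2-fold between the films could therefore not be excluded at this depth and spread.

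**Figure D2:**
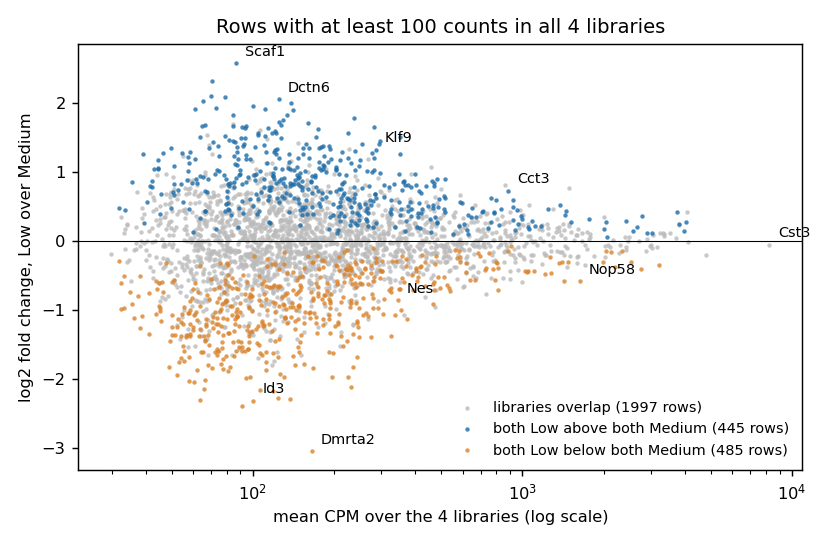
Log2 fold change of “Low” over “Medium” (vertical axis) against mean CPM over the 4 libraries (horizontal axis, log scale), 1 point per row with at least 100 counts in all 4 libraries. Rows in which both Low libraries lay above (445) or below (485) both Medium libraries are coloured; differences narrow towards the right, and no coloured row passed the adjusted test.

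The abundant transcripts gave the tightest bounds. The 147 described rows of at least 1000 CPM took 26.8 to 29.2% of the counts of a library, and their log2 differences ran from -0.58 to 0.76. For 117 of the 147 the whole 95% interval lay within 2-fold. The row with the highest mean level was Cst3, which encodes the secreted protease inhibitor cystatin C, with 9497 and 7263 CPM on “Medium” and 9251 and 6918 CPM on “Low”. Its replicate 2 was the lower one on both films, and the log2 difference was -0.052 (95% interval -0.63 to 0.52). The ribosomal protein gene Rpl22 had 5696 and 4599 CPM on “Medium” and 3985 and 4965 on “Low” (log2 -0.20, interval -0.75 to 0.34), and its difference was -0.047 without Medium replicate 1.

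Genes of metal and redox handling were among the most abundant. Mt3, a brain metallothionein, had 3232 and 3761 CPM on “Medium” and 5968 and 3353 on “Low”, where a single Low library was high. Fth1, the heavy chain of the iron store ferritin, had 3082 and 3352 CPM on “Medium” and 3897 and 4683 on “Low” without overlap (log2 0.42, SE 0.21, interval -0.093 to 0.92). Txn1, the disulphide reductase thioredoxin, had 3531 and 3801 CPM on “Medium” and 5022 and 3876 CPM on “Low”, also without overlap, although its Medium replicate 2 and Low replicate 2 were nearly level. Ccnd1, the cyclin that carries cells through G1, had 3707 and 3794 CPM on “Medium” and 4341 and 3988 on “Low”, a log2 difference of 0.15 with an interval of -0.32 to 0.62. The β-tubulin gene Tubb5 stood at 3046 and 3929 CPM on “Medium” and 4200.0 and 4056 CPM on “Low” (log2 0.24, interval -0.29 to 0.77), and its difference was 0.063 without Medium replicate 1. The other 3 of the 10 rows with the highest mean CPM, Rps14 (its second row), Rplp1 and Vim, overlapped between the films, with log2 differences of -0.014, 0.23 and 0.039.

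Some genes barely varied over the 4 libraries. By the SD of their log2 levels, the steadiest rows included Gas6, the ligand of the TAM receptor kinases, Sec61g, a subunit of the translocon of the endoplasmic reticulum, and the ribosomal protein gene Rpl32. Gas6 stood at 1981 and 2052 CPM on “Medium” and 2128 and 2088 CPM on “Low”, and Sec61g at 831 and 801 CPM on “Medium” and 809.6 and 858 CPM on “Low”. The log2 differences of these 3 genes lay between -0.079 and 0.064. Their intervals were still wide, for Sec61g -0.58 to 0.64. The fit shares its estimate of the spread between rows and rests on 2 libraries a film, and what set the width was not tested.

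The largest fitted differences were in rows of low to middle depth. Among rows measured in all 4 libraries without overlap, 10 in each direction were named by size. On the “Low” side, Scaf1, a partner of the RNA polymerase II tail, had 22.5 and 27.3 CPM on “Medium” and 176 and 121 on “Low”, so both Low libraries were well above both Medium libraries (log2 2.58, SE 1.06). Dctn6, a subunit of the dynactin complex that links dynein to its cargo, had 48.4 and 48.6 CPM on “Medium” and 198 and 205 CPM on “Low” (log2 2.05, SE 0.73, interval 0.30 to 3.81), with little spread inside either film. Nfkbia, the inhibitor that holds NF-κB in the cytoplasm, had 25.6 and 34.2 CPM on “Medium” and 127 and 128 on “Low” (log2 2.09, SE 1.14). The other 7 on this side were Ppap2a, Cmtm7, Alg2, Ak6, LOC361985, Arih2 and Tmem47, with log2 differences of 1.92 to 2.31. In Ak6 and Tmem47, Medium replicate 1 was the lowest library by far, and without it their differences were 1.28 and 1.31. The difference of Ppap2a was 1.36 without Low replicate 1.

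On the “Medium” side, Dmrta2, a transcription factor of the dorsal telencephalon, had the largest difference. It stood at 462 and 129 CPM on “Medium” and 46.5 and 25.3 on “Low”, and Medium replicate 1 was its highest library (log2 -3.04, SE 0.85, interval -5.08 to -1.0). Without Medium replicate 1 the difference was -1.86. Id3, which inhibits basic helix-loop-helix factors downstream of BMP signals, had 222 and 112 CPM on “Medium” and 40.7 and 26.5 on “Low” (log2 -2.31, SE 0.96, interval -4.64 to 0.013), and -1.75 without Medium replicate 1. Ndufs3, a core subunit of respiratory complex I, had 281 and 176 CPM on “Medium” and 26.4 and 66.7 on “Low” (log2 -2.29, SE 0.80).

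Ppp1cc, a catalytic subunit of protein phosphatase 1, had 387 and 366 CPM on “Medium”, almost level, but 33.7 and 140.1 on “Low”, where the replicates were themselves far apart (log2 -2.12, SE 0.74). Smap2 was the weakest case: Medium replicate 1, at 33.9 CPM, was close to the 28.6 and 20.2 CPM of “Low”, and Medium replicate 2, at 181 CPM, carried the difference. Without Medium replicate 2 the log2 difference of Smap2 was -0.48. The others of the 10 were Ccdc59, Qars, Sacm1l, Ano6 and Wbscr16, with log2 differences of -2.39 to -2.17. That of Ccdc59 was -1.42 without Medium replicate 1.

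**Figure D3:**
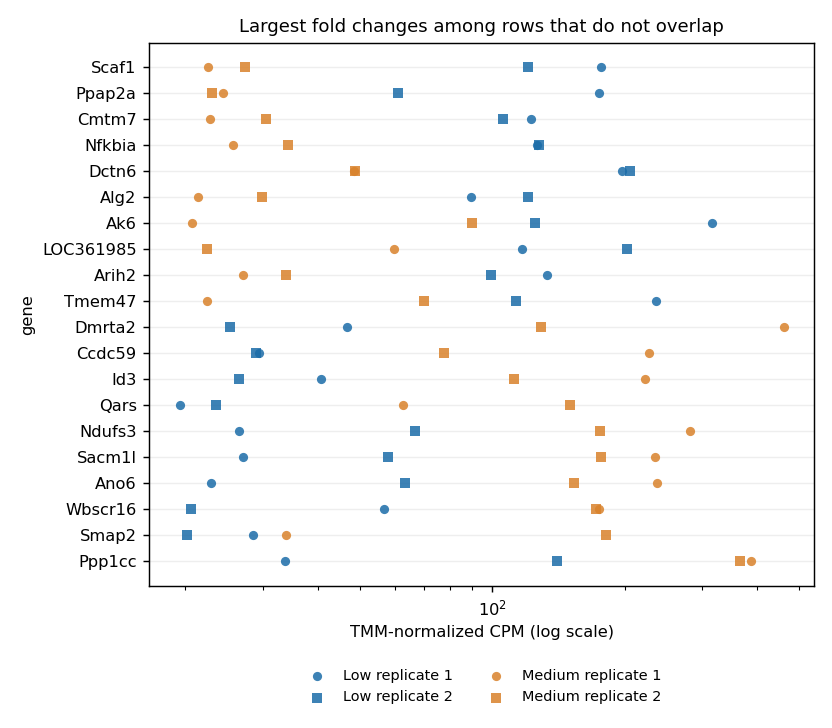
TMM-normalized CPM (horizontal axis, log scale) of the 20 named rows with the largest fold changes among those without overlap, 10 higher on “Low” (top) and 10 higher on “Medium” (bottom). Blue points are Low and orange points Medium libraries, circles replicate 1 and squares replicate 2; the gap between films is wide in Dctn6 and Scaf1 and narrow beside the spread of the replicates in Smap2 and Ak6.

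The 15 rows of all 4 libraries that DESeq2's Wald test called are given here because they depended on the tool, and those not named above were chosen after their values were seen. They were Scaf1, Dctn6, Klf9, Skiv2l2 and Cct3 with the higher level on “Low”, and Dmrta2, Id3, Ndufs3, Sacm1l, Deaf1, Glod4, Gpm6a, Cse1l, Nop58 and Mcts1 with the higher level on “Medium”. Klf9, a transcription factor induced by glucocorticoid and thyroid hormones, had 184 and 142 CPM on “Medium” and 417 and 399 on “Low” (edgeR log2 1.32, SE 0.41). Cct3, a subunit of the chaperonin that folds actin and tubulin, had 605 and 724 CPM on “Medium” and 1065 and 1137 CPM on “Low” (log2 0.73, SE 0.26).

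Nop58, a core protein of box C/D small nucleolar particles, had 1985 and 1927 CPM on “Medium” and 1208 and 1404 on “Low” (log2 -0.58, SE 0.23). Gpm6a, a membrane glycoprotein of neurons and their precursors, had 286 and 292 CPM on “Medium” and 86.7 and 103 on “Low” (log2 -1.61, SE 0.51). In these 4 genes the replicates of each film lay closer to each other than to the other film. Their DESeq2 adjusted p values were 0.012 for Klf9, 0.017 for Cct3, 0.023 for Nop58 and 0.0039 for Gpm6a, and none was called by edgeR or limma-voom.

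Stem cell genes did not move one way. Of the 17 rows of the neural stem and radial glia list measured in all 4 libraries, both Low libraries were above both Medium libraries in 2. They were below in 6, and 9 overlapped. Over all rows so measured, 15.2% lay above and 16.6% below, and the counts of every list that follows are read beside these shares. The median log2 difference was 0.039 beside -0.032 over all such rows. The median was -0.21 without Medium replicate 1, and also -0.21 without Low replicate 2. Without Medium replicate 1, 7 rows lay above and 7 below, beside 30.7% above and 30.8% below over all rows in that setting. Sox2, the factor that maintains neural progenitors, was 1 of the 2 above (log2 0.28, SE 0.26, interval -0.35 to 0.90), and Ezh2, the histone H3 lysine methyltransferase of Polycomb complexes, was the other, with 208 and 207 CPM on “Medium” and 219 and 288 CPM on “Low”. Nes, the intermediate filament that marks these cells, stood at 492 and 394 CPM on “Medium” and 242 and 249 on “Low” (log2 -0.85, SE 0.36, interval -1.72 to 0.017). Its Low libraries were nearly level and both below the Medium libraries, and without Medium replicate 1 the difference was -0.69. Fabp7, the fatty acid carrier of radial glia, had 412 and 188 CPM on “Medium” and 51.5 and 143 on “Low” (log2 -1.63, SE 0.72), where each film's replicates differed more than 2-fold, and -0.96 without Medium replicate 1.

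Id1, the relative of Id3, had 244 and 119 CPM on “Medium” and 18.5 and 117 on “Low”: a single low library, Low replicate 1, and a single high one, Medium replicate 1, set its difference, and the remaining pair was level. Zic2, a zinc finger factor of the forebrain, had 207 and 162 CPM on “Medium” and 118 and 109 on “Low” (log2 -0.71, SE 0.61). Dbi, an acyl-CoA binding protein, was the last of the 6 below, at log2 -0.38. Lhx2, a selector of cortical identity, had 404 and 325 CPM on “Medium” and 370.1 and 412 CPM on “Low”, and Ptn, the growth factor pleiotrophin, 1213 and 1465 CPM on “Medium” and 1169.7 and 1250.0 CPM on “Low”, both with overlap. Fabp7, Id1 and Dbi were picked from the list after their values were seen.

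**Figure D4:**
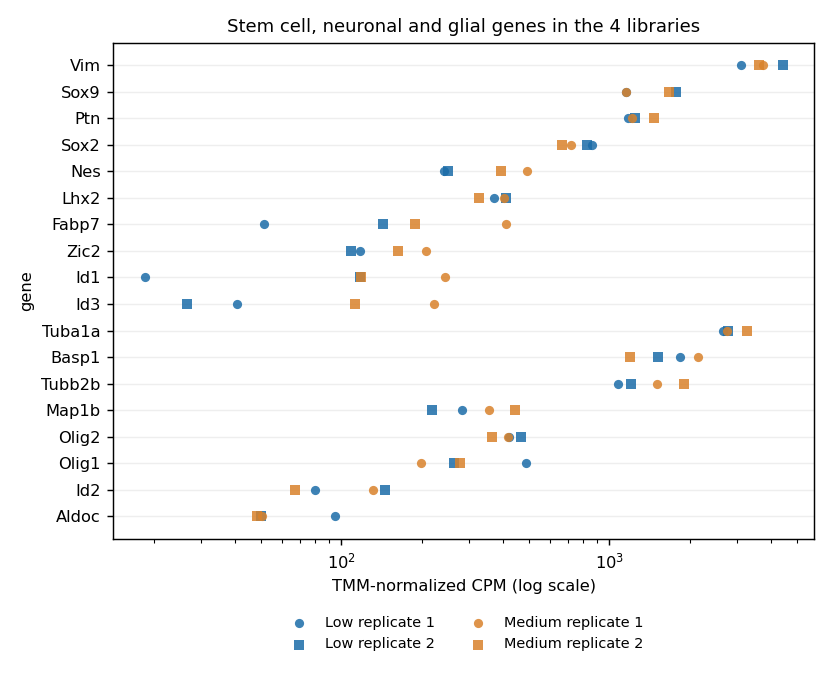
TMM-normalized CPM (horizontal axis, log scale) of 18 genes of stem cells (Vim to Id3), neurons (Tuba1a to Map1b), oligodendrocyte precursors (Olig2, Olig1) and astrocytes (Id2, Aldoc) in the 4 libraries, blue for Low and orange for Medium, circles for replicate 1 and squares for replicate 2. Vim and Tuba1a overlap between the films, and Sox9 is higher in replicate 2 than in replicate 1 on both films. Nes, Zic2, Id3, Tubb2b and Map1b are lower in both Low libraries.

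Neuronal genes mostly overlapped. Of the 31 rows of the neuron list, 11 were measured in all 4 libraries. None lay above, 2 below and 9 overlapped, against 15.2% above and 16.6% below over all rows. The median log2 difference was -0.15, and it was -0.27 without Medium replicate 1 and 0.092 without Low replicate 2. The 2 below were the tubulin gene Tubb2b, at 1501 and 1906 CPM on “Medium” and 1077 and 1200.5 on “Low” (log2 -0.58, SE 0.25, interval -1.18 to 0.02), and Map1b, a microtubule-associated protein of growing axons, at 354 and 445 CPM on “Medium” and 281 and 217 CPM on “Low” (log2 -0.68, SE 0.39). Tubb2b was 0.75 lower on “Low” on the log2 scale without Medium replicate 1. Tuba1a, the main α-tubulin of young neurons, had 2747 and 3264 CPM on “Medium” and 2655 and 2780.3 CPM on “Low”, and Basp1, a growth cone protein, 2134 and 1192 CPM on “Medium” and 1829 and 1513 CPM on “Low”, and both overlapped.

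Tubb3, which encodes the neuronal tubulin recognised by the Tuj1 antibody, had 96 and 72 counts on “Low” and 0 in both Medium libraries. It did not reach the 100-count minimum and no fold was drawn from it. Of the neuronal progenitor list, 3 rows were measured in all 4 libraries and 1, Gadd45g, lay below, at 267 and 257 CPM on “Medium” and 237 and 161 on “Low”. Hes6, which promotes neuronal differentiation, had 0 and 275 counts on “Medium” and 1014 and 465 on “Low”. Elavl2, an RNA-binding protein of neurons, had 147 and 182 counts on “Medium” and 0 in both Low libraries.

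In the glial lists, Olig2, the factor of the oligodendrocyte lineage, had 417 and 365 CPM on “Medium” and 421 and 467 on “Low” without overlap (log2 0.18, interval -0.60 to 0.97). Its partner Olig1 had 198 and 277 CPM on “Medium” and 489.6 and 263 CPM on “Low”, and Low replicate 1 stood out. Of the 3 oligodendrocyte rows measured in all 4 libraries, 1 lay above and none below, with a median of 0.29. The 3 astrocyte rows, Id2, Gja1 and Aldoc, all overlapped, with a median of 0.19. That median was 0.57 without Medium replicate 1 and -0.33 without Low replicate 2, and a list of 3 rows rests on each of its libraries.

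Genes of the cell cycle went both ways. Of 21 mitosis rows measured in all 4 libraries, 4 lay above, 2 below and 15 overlapped (median -0.061), and of 12 DNA replication rows the counts were 2, 1 and 9 (median -0.24). Without Medium replicate 1 both medians lay on the other side of 0, at 0.11 for mitosis and 0.095 for DNA replication, and the latter was 0.17 without Low replicate 1. Cdc20, the activator of the anaphase-promoting complex, had 321 and 330.0 CPM on “Medium” and 672 and 523 on “Low”, so both Low libraries were well clear of level Medium libraries (log2 0.88, SE 0.32, interval 0.093 to 1.66). Without Medium replicate 1 its difference was 0.85. Tpx2, a spindle assembly factor chosen after its values were seen, had 361 and 121 CPM on “Medium” and 58.2 and 81.4 on “Low” (log2 -1.79, SE 0.76), and -0.80 without Medium replicate 1.

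Of the replication genes, Mcm6, a subunit of the replicative helicase, had 97.4 and 172 CPM on “Medium” and 373 and 175 on “Low”, and Low replicate 1 carried the difference. Lig1, the DNA ligase of lagging strands, had 611 and 706 CPM on “Medium” and 333 and 489.9 on “Low” (log2 -0.68, SE 0.33). Among 7 rows of G1 cyclins and inhibitors, 3 lay above and 1 below (median 0.22), against 15.2% above and 16.6% below over all rows. Cdkn1a, the kinase inhibitor p21, was 1 of the 3 above, at 537 and 604 CPM on “Medium” and 626 and 821 CPM on “Low” (log2 0.34, SE 0.29), and Cdk4, the partner of D cyclins, was below, at 239.9 and 121 CPM on “Medium” and 65.9 and 99.8 CPM on “Low”. The log2 difference of Cdk4 was -1.12, and -0.55 without Medium replicate 1.

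Endoplasmic reticulum chaperones had the highest median of the lists with at least 3 rows measured in all 4 libraries. Of 10 such rows, 5 lay above, 1 below and 4 overlapped, and the median log2 difference was 0.47. Over all rows measured in all 4 libraries, 15.2% lay above and 16.6% below. The median stayed above 0 under each of the 15 alternatives that gave it, from 0.11 without Low replicate 2 to 0.79 without Medium replicate 2. It was 0.20 without Medium replicate 1. Most of these alternatives use the same 4 libraries, and lists near 0 kept their sign too, such as actins and tubulins (median 0.028). Pdia6, a protein disulphide isomerase, had 254 and 257 CPM on “Medium” and 493 and 435 CPM on “Low” (log2 0.86, SE 0.34). P4hb, another isomerase, had 220.3 and 318 CPM on “Medium” and 583 and 471 CPM on “Low” (log2 0.97, SE 0.37), and both were chosen after their values were seen. Calr, the calcium-binding chaperone calreticulin, had 409 and 559.9 CPM on “Medium” and 656 and 765 on “Low”, and Pdia3 had 301 and 343 CPM on “Medium” and 396 and 644 CPM on “Low”.

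Hspa5, the central chaperone BiP, overlapped at 1029 and 1040.1 CPM on “Medium” and 907 and 1273 CPM on “Low”, and Hsp90b1, the chaperone GRP94, lay below at 207 and 178 CPM on “Medium” and 160.4 and 31.7 CPM on “Low”. Summed over the whole list, the level was 3517 and 4115 CPM on “Medium” and 4414 and 5273 CPM on “Low”. No member passed the adjusted test.

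The cholesterol and fatty acid synthesis list had 5 of 14 rows above, none below and 9 with overlap, with a median of 0.32, and 0.42 without Medium replicate 1, against 15.2% above and 16.6% below over all rows. Idi1, an enzyme of the mevalonate pathway, had 1474 and 1036 CPM on “Medium” and 1501 and 1759.7 CPM on “Low”, with Medium replicate 1 close to Low replicate 1 (log2 0.38, SE 0.27). Srebf2, the transcription factor of this pathway, had 107 and 234 CPM on “Medium” and 398 and 390.5 on “Low” (log2 1.21, SE 0.51), and 0.74 without Medium replicate 1. Fdft1, squalene synthase, had 34.3 and 99 CPM on “Medium” and 144 and 230.0 CPM on “Low”, a log2 difference of 1.49, and 0.91 without Medium replicate 1. Srebf2 and Fdft1 were chosen after their values were seen. Msmo1 and Cyp51, later enzymes of the pathway, overlapped, with log2 differences of 0.27 and -0.11. The summed level of the list was 5063 and 5498 CPM on “Medium” and 6675 and 7127 CPM on “Low”.

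**Figure D5:**
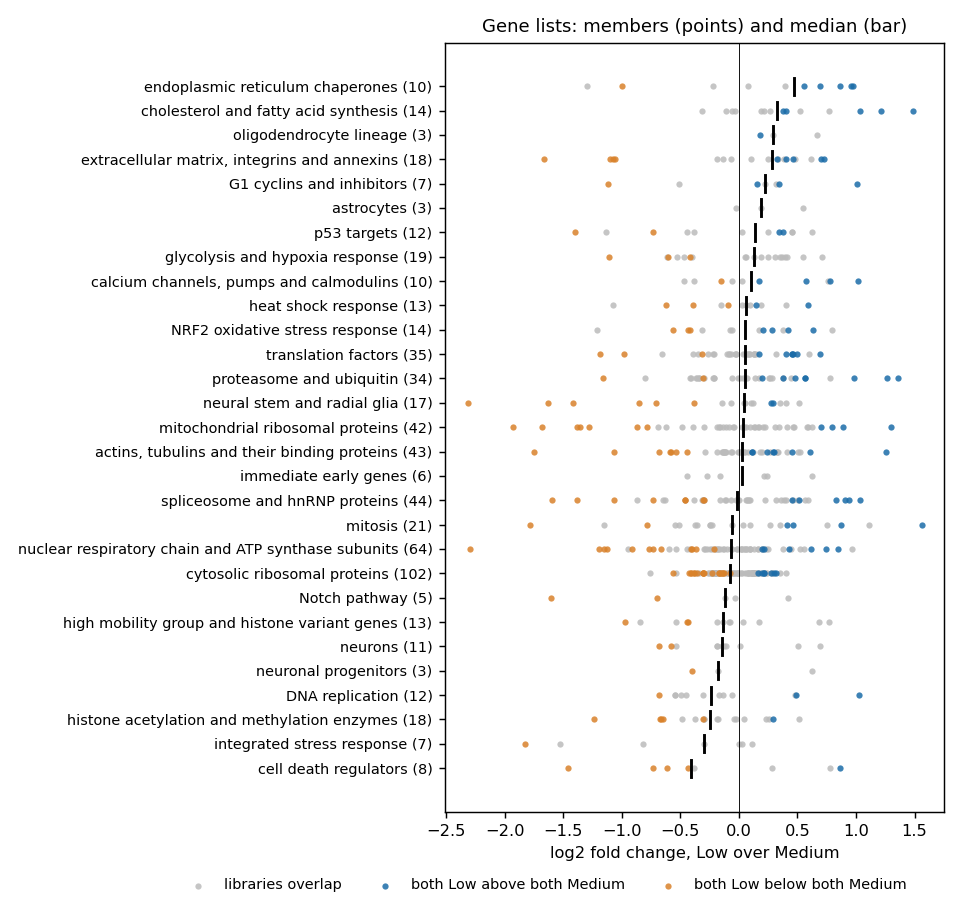
Log2 fold change of “Low” over “Medium” (horizontal axis) of the members of each gene list with at least 3 rows measured in all 4 libraries (number in brackets), ordered by the median (black bar). Blue and orange points are rows in which both Low libraries lay above or below both Medium libraries and grey points overlap; medians run from -0.41 for cell death regulators to 0.47 for endoplasmic reticulum chaperones, and members lie on both sides of 0 in every list shown but the oligodendrocyte lineage.

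Cell adhesion genes were spread to both sides. Of 18 rows for extracellular matrix, integrins and annexins, 5 lay above, 4 below and 9 overlapped, against 15.2% above and 16.6% below over all rows. Their median was 0.29, and 0.025 without Medium replicate 1. Fn1, the matrix protein fibronectin, had 174 and 203 CPM on “Medium” and 78.6 and 96.6 on “Low” (log2 -1.10, SE 0.66, interval -2.70 to 0.49), and -1.22 without Medium replicate 1. Timp1, an inhibitor of matrix metalloproteinases, lay the other way, at 1128 and 959 CPM on “Medium” and 1544 and 1334 on “Low” (log2 0.46, SE 0.25). Cd81, a tetraspanin that binds integrins, had 309.6 and 312 CPM on “Medium” and 561 and 471 CPM on “Low”, with level Medium libraries below both Low libraries (log2 0.73, SE 0.33). Itgb1, the β1 integrin, varied more than 3-fold inside each film, at 117 and 631 CPM on “Medium” and 630.3 and 175 CPM on “Low”, and gave no bound of use.

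Cytoskeletal genes included some of the tightest values. Of 43 rows for actins, tubulins and their binding proteins, 8 lay above, 7 below and 28 overlapped (median 0.028). Actg1, cytoplasmic γ-actin, has a pair of rows in the table, and the first had 2908 and 2895 CPM on “Medium” and 3130.3 and 3155 on “Low” (log2 0.12, interval -0.36 to 0.59). Reads that align to several places were counted, so rows of near-identical tubulin, actin and ribosomal protein copies may share reads. Map4, a microtubule-associated protein, had 312 and 214 CPM on “Medium” and 174 and 175 CPM on “Low” (log2 -0.59, SE 0.48), and -0.30 without Medium replicate 1.

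The study followed calcium handling and histone modification, and both lists were described for that reason. Of 10 rows of calcium channels, pumps and calmodulins, 4 lay above and 1 below, against 15.2% above and 16.6% below over all rows. Their median was 0.10, and 0.032 without Medium replicate 1. The second row of Calm2, which encodes calmodulin, had 2635 and 2289 CPM on “Medium” and 2221 and 2211 CPM on “Low” (log2 -0.15, interval -0.67 to 0.37). Camk2b, a calmodulin-dependent kinase, had 744 and 1464 CPM on “Medium” and 2360.3 and 1384 CPM on “Low”, with overlap. Channels and exchangers were shallow: Itpr2, an inositol trisphosphate receptor, had 321 and 53 counts on “Medium” and 201 and 253 on “Low”. The channel Trpm7 had 164 and 289 counts on “Medium” and 84 and 342 on “Low”, and the exchanger Slc8a1 63 and 134 on “Medium” and 164 and 120 on “Low”. Their SEs were 2.01, 1.89 and 2.63 on the log2 scale, so a 2-fold difference could not be resolved in them.

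Of 18 rows of histone acetylation and methylation enzymes, 1 lay above (Ezh2), 5 below and 12 overlapped, against 15.2% above and 16.6% below over all rows, with a median of -0.24. Without Medium replicate 1 the median was -0.13, with 4 rows above and 7 below. Over all rows in that setting, 30.7% lay above and 30.8% below. The 5 below were Kat5, Sirt6, Crebbp, Eed and Ehmt2, from -1.24 to -0.31 on the log2 scale. Crebbp, the acetyltransferase CBP, had 196 and 233 CPM on “Medium” and 117 and 153 on “Low” (SE 0.55). The deacetylase Hdac2 overlapped, at 277 and 439 CPM on “Medium” and 337 and 403 CPM on “Low”. Among 13 rows of high mobility group proteins and histone variants, 3 lay below and none above (median -0.13). They were H2afv, H2afz and H3f3b. H2afz, the variant histone H2A.Z, had 1565 and 972 CPM on “Medium” and 949 and 920.4 on “Low”, and its log2 difference of -0.44 was -0.066 without Medium replicate 1.

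Cell death regulators had the lowest median, at -0.41 over 8 rows with 1 above, 4 below and 3 overlapping, against 15.2% above and 16.6% below over all rows. Without Medium replicate 1 the median was 0.45, on the other side of 0. Mcl1, a survival protein of the BCL2 family, had 278 and 161 CPM on “Medium” and 100.1 and 59.6 on “Low” (log2 -1.46, SE 0.69), Bax, a pore-forming member, 194 and 174 CPM on “Medium” and 102 and 119 CPM on “Low” (log2 -0.73, SE 0.62), and Bcl2l1, another survival member, 77.6 and 43.7 CPM on “Medium” and 108 and 112 CPM on “Low” (log2 0.86, SE 1.04). Bax and Bcl2l1 were chosen after their values were seen. Sqstm1, the autophagy receptor p62, had 1360.3 and 1002 CPM on “Medium” and 800.5 and 942 on “Low”, and its difference of -0.44 was -0.21 without Medium replicate 1.

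Stress responses were mixed. Of 12 p53 target rows, 2 lay above, 2 below and 8 overlapped (median 0.14), and of 14 NRF2 rows, 4, 3 and 7 (median 0.054). The shares over all rows were 15.2% above and 16.6% below. Gadd45a, a growth arrest gene chosen after its values were seen, had 539 and 257 CPM on “Medium” and 129 and 173 on “Low” (log2 -1.40, SE 0.52), and -0.77 without Medium replicate 1. Hmox1, heme oxygenase 1, overlapped at 1108 and 1058 CPM on “Medium” and 1024 and 1412 CPM on “Low” (log2 0.17, interval -0.47 to 0.81). Of 7 rows of the integrated stress response, none lay above and 1, Psat1, lay below (median -0.30). That median was 0.28 without Medium replicate 2 and -0.78 without Medium replicate 1. Psat1, an enzyme of serine synthesis, had 229 and 505 CPM on “Medium” and 57.7 and 149.6 on “Low” (log2 -1.82, SE 0.68, interval -3.46 to -0.19), while its inducer Atf4 overlapped at 225 and 545 CPM on “Medium” and 166 and 461 CPM on “Low”.

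Of 13 heat shock rows, 2 lay above, 3 below and 8 overlapped (median 0.058), and Hsp90aa1 had 1007 and 1185 CPM on “Medium” and 1093 and 1410.3 CPM on “Low”. All 6 immediate early rows overlapped (median 0.025), Jun among them at 484 and 588 CPM on “Medium” and 675 and 588 CPM on “Low”. Of 19 rows for glycolysis and hypoxia, none lay above, 3 below and 16 overlapped (median 0.13). Of 5 Notch pathway rows, 2 lay below and 3 overlapped (median -0.12). Their median was 0.38 without Low replicate 1 and -0.91 without Low replicate 2. The 2 below were the ligand Jag1 and the DNA-binding protein Rbpj. Jag1 stood at 101 and 95.7 CPM on “Medium” and 23.4 and 41 CPM on “Low”. Rbpj stood at 86 and 62.5 CPM on “Medium” and 53.6 and 38 CPM on “Low”.

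The large housekeeping lists lay close to 0. Of 102 rows of cytosolic ribosomal proteins, 7 lay above, 19 below and 76 overlapped, against the 15.2% and 16.6% of all rows, with a median of -0.079 and single rows from -0.76 to 0.40. Without Medium replicate 1 the median was -0.0066. The 64 rows of nuclear respiratory chain and ATP synthase subunits gave 6 above, 12 below and 46 overlapping (median -0.066, and 0.14 without Medium replicate 1). Cox7c, a subunit of cytochrome oxidase, had 3468 and 3025 CPM on “Medium” and 3966 and 2978 on “Low”.

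The 42 rows of mitochondrial ribosomal proteins gave 4 above, 7 below and 31 overlapping (median 0.035). Mrps21 was the most abundant of those that did not overlap, at 598 and 344 CPM on “Medium” and 227 and 135 on “Low” (log2 -1.38, SE 0.48). Of 35 translation factor rows, 7 lay above, 3 below and 25 overlapped (median 0.050), and of 34 proteasome and ubiquitin rows, 8, 2 and 24 (median 0.050). The shares over all rows were 15.2% above and 16.6% below. The 44 rows of spliceosome and hnRNP proteins gave 6, 8 and 30 (median -0.018). Snrpd1, a core protein of spliceosomal particles, had 1584 and 1385 CPM on “Medium” and 1012 and 1145 on “Low” (log2 -0.46, SE 0.24, interval -1.04 to 0.12).

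Many rows were detected on 1 film only, and the replicates of a film also disagreed on detection. In 67 rows both Low libraries had at least 100 counts and both Medium libraries at most 3, and in 33 rows the reverse was seen. Within “Low”, 1006 rows had at least 100 counts in 1 library and 0 in the other, and within “Medium” 1464 rows did. Of the rows with at least 100 counts in both Low libraries, 614 were at 0 in Medium replicate 1 alone and 25 in Medium replicate 2 alone. Of those with at least 100 counts in both Medium libraries, 133 were at 0 in Low replicate 1 alone and 57 in Low replicate 2 alone. Of the 1274 rows that passed through “Low” alone, 695 still overlapped with “Medium”, and of the 580 that passed through “Medium” alone, 282 overlapped with “Low”.

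The named rows of this kind had clear counts on 1 film. For some with 0 counts in both libraries of the other film, a floored ratio is given. It is the ratio of the film means with each library raised to a floor of 3 counts. This ratio covers counting error only, is no bound on the spread between replicates, and is partly set by how the rows were chosen. Spg11, a lysosome protein gene mutated in spastic paraplegia, had 511 and 356 counts on “Low” and 0 and 0 on “Medium”. Its floored ratio of “Low” over “Medium” was 134. Pelo, which rescues stalled ribosomes, had 842 and 163 counts on “Low” and none on “Medium”, a floored ratio of 149 that rests mostly on Low replicate 1. Plcb4, a phospholipase, Pip4k2c, a phosphoinositide kinase, and Hexim2, an inhibitor of transcription elongation, had no counts on “Medium” and, on “Low”, 128 and 591 counts for Plcb4, 507 and 235 for Pip4k2c and 535 and 200 for Hexim2.

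Mad2l1, the spindle checkpoint protein, had 646 and 461 counts on “Low” and 3 and 0 on “Medium”, Arhgap17 had 719 and 230 on “Low” and 0 and 1 on “Medium”, and Ube2z had 348 and 399 on “Low” and 0 and 2 on “Medium”. On the other side, Nr1d1, the circadian repressor REV-ERBα, had 685 and 427 counts on “Medium” and was at 0 on “Low”. Its floored ratio of “Medium” over “Low” was 199. Tars2, a mitochondrial threonyl-tRNA synthetase, had 838 and 255 counts on “Medium” and none on “Low”, a floored ratio of 197 that rests mostly on Medium replicate 1. Gng3, Rad54l2, Enpp1, Tada3 and Tmem68 also had no counts on “Low”, and their lower Medium library, replicate 2, held 100 to 204 counts. Sipa1l1 had 608 and 405 counts on “Medium” and 2 and 0 on “Low”. DESeq2's Wald test called all 16 rows named by size that passed through 1 film, and edgeR and limma-voom called none of them. These rows were picked by the size of their difference in the same counts, so the DESeq2 calls are no separate support. A row at 0 in both libraries of a film has to be read beside the 1006 and 1464 rows in which a replicate was at 0 while its partner held 100 counts or more.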

How the data were processed

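QuantSeq 3′ mRNA libraries of NSPCs on 2 films, 2 libraries a film, were analysed. The authors deposited raw read counts per gene row, 1 table per library. The submitters' processing notes name Bowtie2, bedtools and build rn6. The methods state that unique and multiple alignments were counted and that TMM and CPM followed, and no molecular identifiers are stated, so depth covers counting error only. The 2 libraries of the High film entered 1 alternative fit over all 6 libraries and nothing else.

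The 7 ribosomal RNA rows were left out. Rows passing filterByExpr (6992) were fitted with edgeR 4.0.16 in R 4.3.3 (TMM, glmQLFit, glmQLFTest, Benjamini-Hochberg), checked on simulated data. The pass mark of that check was set at a lower spread than that of these libraries, so it does not show the power of the test here. DESeq2 1.42.0, limma 3.58.1, other scalings and filters, a replicate block and leaving out each library were alternatives. Lists were described by counts and medians without a test.

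Members and gene lists were chosen with earlier results of these data known. Genes were named by fold among rows without overlap (10 a side, and 8 a side for rows passing through 1 film), the 10 highest by mean CPM, the 5 steadiest, up to 4 abundant members per list, with every member without overlap where a list had 3 or fewer, and genes the study names. Genes of these lists outside that rule, and the DESeq2 calls, were added after their values were seen. No sequences are shown, because no measurement here turns on one. Some named results are not reported here.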

Additional observations from a re-analysis of the deposited data

Results flagged for a closer look

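The rows of ribosomal RNA genes, left out of the comparison, held a signal in all 4 libraries: 7.27% and 13% of all counts in Medium replicates 1 and 2, and 7.16% and 7.64% in Low replicates 1 and 2. Medium replicate 2 was the highest. These values lie outside the main measurement and were not tested.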

How the results depend on the processing

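The count of rows with an adjusted p under 0.05 was 0 under every alternative run except 2. DESeq2's Wald test gave 157 rows, 86 of them higher on “Low”, and leaving out the filter on low counts gave 1, Col1a1 (log2 -10.7), which had 2005 counts in Medium replicate 2 and at most 1 in the other libraries. Among the genes named by fold with at least 100 counts in all 4 libraries, DESeq2 moved 6 past the threshold. They were Scaf1 (2.58), Dctn6 (2.05), Dmrta2 (-3.06), Id3 (-2.33), Ndufs3 (-2.31) and Sacm1l (-2.29). It also called all 16 genes named by fold that passed through 1 film, and Elavl2. Genes named by fold were picked by size in these same libraries, so the calls are no separate support for them. Of its calls, 15 had at least 100 counts in all 4 libraries, 67 passed through “Low” alone and 41 through “Medium” alone. The rows at an unadjusted p under 0.05 went from 101 to 59 without Low replicate 1, to 1069 without Medium replicate 2, to 180 without the filter, to 181 with limma-voom and without Low replicate 2, and to 657 with DESeq2; the cause was not tested.

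The median log2 difference was -0.061 with library sizes alone and ran from -0.10 to 0.032 when 1 library was left out. Leaving out 1 library gave 886 to 983 rows with “Low” above and 901 to 1133 with “Low” below, more by construction because a film then has 1 library, assumed to vary like the others. Fits with a replicate block called 0 rows, with 86 at an unadjusted p under 0.05. The deviations of same-numbered libraries correlated at 0.022 over rows, the labels do not say that a number marks a shared culture, and the block was therefore not used. Of 435 list medians under the alternatives 58 moved past a cut and 32 changed sign, 29 of these when 1 library was left out. The cut was the median replicate SD of a list's rows divided by the square root of their number. It treats genes as independent and narrows as a list grows, so the 58 are a description. List values without Medium replicate 1 were added after seeing the data. At under 1000 counts, no interval stayed within 2-fold.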
